A study of Homo sapiens with 20 samples.

Results

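The 36 genes described here encode the enzymes and regulators of glycolysis, the subunits and oxygen sensors of the hypoxia-inducible factors (HIF), and widely used target genes of those factors. They were chosen by name from knowledge of these pathways, with earlier results of these data known. Their shares beside those of all genes are therefore a description, not an independent test. Each gene was read through Affymetrix probe sets annotated to that gene and to no other. Of the 36, 34 had such a probe set, out of 19775 genes measured in all. CA9 and SLC16A3 had none and were not analysed here.

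Glycolysis converts glucose to pyruvate in the cytosol. Glucose enters through carriers such as SLC2A1 and is trapped by hexokinases. The phosphofructokinases then commit it to breakdown, and the PFKFB enzymes make and remove their strongest allosteric activator. When oxygen is scarce, the EGLN prolyl hydroxylases stop marking the HIF alpha subunits (HIF1A and EPAS1) for degradation, and the stabilised factors raise transcription of glycolytic genes, VEGFA and many others. Much of this control acts on the protein, so a HIF1A transcript level does not read the factor's activity. In prostate cancer cells the androgen receptor is known to induce some of the same genes, among them HK2, PFKFB2 and NDRG1.

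Transcripts were measured on 20 arrays in LNCaP, an androgen-sensitive human prostate cancer line, and in C42B, a castration-resistant derivative of it. C42B cells were transfected for 6 h with siRNA against LSD1 (siLSD1, 3 arrays) or the control siRNA labelled siNTC (3 arrays), and then kept for 96 h in 10% charcoal-stripped serum (CSS), which is low in steroids. LNCaP cells received 50 nM siLSD1 (3 arrays) or siNTC (3 arrays) and grew in 10% fetal bovine serum (FBS), with the RNA taken after 96 h. In the third experiment C42B cells were held for 72 h in CSS and given 100 nM of the androgen dihydrotestosterone (DHT, 4 arrays) or ethanol vehicle (4 arrays) for 16 h. None of the labels names a low-oxygen treatment. LSD1, encoded by KDM1A, is a histone lysine demethylase and androgen receptor coregulator. Each line had a single siLSD1 label, so an effect of the siRNA sequence cannot be told apart from that of lower LSD1. LNCaP replicates were pools of RNA from pairs of wells, and C42B replicates came from separate wells. The labels do not say whether replicates were grown as independent cultures, and the p-values therefore cover only the spread between these samples, which may be technical.

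KDM1A, read by 1 probe set, had log2 intensities of 7.80 to 8.03 in C42B siLSD1 arrays and 10.21 to 10.36 in C42B siNTC arrays. In LNCaP the values were 7.25 to 7.40 with siLSD1 and 9.95 to 10.23 with siNTC. The targeted transcript was therefore lower in every siLSD1 array, and DHT raised it slightly (log2 fold change 0.16, limma adjusted p = 0.02). Array medians of intensity differed by experiment (78.4 to 81.2 for C42B siRNA, 63.3 to 65.1 for LNCaP siRNA and 84.1 to 86.1 for the androgen experiment), so levels are set against each other inside 1 experiment, and the lines only by their siRNA effects. Of 9 prostate luminal markers 7 were measured, each with a mean log2 intensity of 6 or more in every group, while all 4 leukocyte markers lay below 6 in the siRNA groups and 3 of the 4 did so in the androgen groups. A group mean under 6 is called dim below. A measured intensity in a bulk sample cannot tell fewer expressing cells apart from less RNA per cell, and levels of different probe sets are not compared. Every log2 fold change is the limma estimate with its SE, and passing means an adjusted p below 0.05, with adjustment over all 19775 genes.

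Hypoxia response elements share the core letters ACGTG or GCGTG, and the E-box CACGTG, which other factors bind, contains the first of them. RefSeq promoter windows (GRCh38.p14, 300 bases around an annotated start, mostly upstream) were found for 32 of the 36 members. On either strand, 29 of these 32 members (90.6%) had a window with ACGTG or GCGTG, against 52.4% of all 27305 genes in the same table. Counted by window, the share was 65.6% of 61 member windows against 48.4% of 35116. The E-box letters were found in 9 members (28.1%), against 8.8% of all genes. Counted by window, the E-box share was 14.8% against 7.3%. ACGTG was found in 39.3% of member windows against 21.4% of all windows, and GCGTG in 39.3% against 36.5%, a share near the background. A gene with more windows has more room for a match, and base composition was not matched. PGAM1, EGLN3 and P4HA2 had no core match in these windows. Several members are textbook HIF targets, and a match is a run of letters, not a shown binding site. The windows below belong to members whose values are set out in the results. ANKRD37, HK2 and PFKFB4 passed in opposite directions with siLSD1 and with DHT in C42B, and EGLN3 was lower in all 3 comparisons. Capitals mark the core letters on either strand, with the E-box in capitals throughout. The ANKRD37 window (chr4:185396591-185396890, plus strand) has 3 core matches in 2 stretches, 1 of them the E-box. The downstream of the HK2 windows (chr2:74834920-74835219, plus strand) has 6 core matches in 4 stretches, and 2 of those stretches are E-boxes. An E-box holds the core on both strands and so counts as 2 matches. The upstream HK2 window (chr2:74833877-74834176, plus strand), which is not printed, has 3 core matches and no E-box. The PFKFB4 window (chr3:48556754-48557053, minus strand) has 1 match and the EGLN3 window (chr14:33951025-33951324, minus strand) has none.
ANKRD37: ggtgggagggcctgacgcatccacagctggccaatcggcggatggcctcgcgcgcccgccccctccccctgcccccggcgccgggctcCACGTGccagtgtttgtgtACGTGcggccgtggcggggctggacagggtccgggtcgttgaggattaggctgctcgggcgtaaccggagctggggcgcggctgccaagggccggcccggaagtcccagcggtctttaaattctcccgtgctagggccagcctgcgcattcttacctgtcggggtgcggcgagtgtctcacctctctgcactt
HK2: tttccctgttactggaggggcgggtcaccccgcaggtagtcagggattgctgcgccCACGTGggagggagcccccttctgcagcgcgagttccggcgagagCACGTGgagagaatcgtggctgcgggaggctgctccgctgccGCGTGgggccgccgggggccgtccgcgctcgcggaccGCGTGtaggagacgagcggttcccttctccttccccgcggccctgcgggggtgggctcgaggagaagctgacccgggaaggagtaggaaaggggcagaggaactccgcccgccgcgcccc
PFKFB4: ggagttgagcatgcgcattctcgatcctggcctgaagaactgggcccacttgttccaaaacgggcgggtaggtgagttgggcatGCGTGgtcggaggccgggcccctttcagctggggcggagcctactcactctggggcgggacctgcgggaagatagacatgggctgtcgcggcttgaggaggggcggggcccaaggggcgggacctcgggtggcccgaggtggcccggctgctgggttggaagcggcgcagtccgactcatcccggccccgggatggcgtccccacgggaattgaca
EGLN3: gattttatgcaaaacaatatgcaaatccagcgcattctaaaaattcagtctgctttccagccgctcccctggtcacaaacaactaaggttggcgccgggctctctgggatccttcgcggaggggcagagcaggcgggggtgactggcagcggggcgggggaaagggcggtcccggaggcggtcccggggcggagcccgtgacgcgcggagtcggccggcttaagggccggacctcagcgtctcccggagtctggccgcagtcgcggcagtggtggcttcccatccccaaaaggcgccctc

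The first comparison asked which of these transcripts change with siLSD1 in steroid-depleted C42B cells. Falls outnumbered rises: 15 of the 34 measured members were lower with siLSD1, 4 were higher and 15 did not pass. Among all genes 18.0% passed (9.39% lower and 8.66% higher), and among genes with a mean log2 intensity of 10 or more, which most members reach, 15.0% were lower and 15.1% higher. Of the members 44.1% were lower and 11.8% higher, a description only, since they were chosen with earlier results of these data known. The members' median log2 fold change was −0.13, against −0.02 over all genes. The siLSD1 and siNTC arrays did not overlap for 25 of the 34 members, against 36.3% of all genes and 60.9% of those at 10 or above.

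The 3 largest changes among glycolysis genes were in PFKFB3, PFKP and PFKFB4. PFKFB3, a bifunctional enzyme with strong kinase activity that stimulates phosphofructokinase, measured 8.09, 8.06 and 8.17 in C42B siLSD1 arrays, against 8.83, 8.85 and 8.87 in siNTC arrays. It fell by 40.4% (log2 fold change −0.75 ± 0.05, adjusted p = 2.7e-04), with tight and well separated groups. PFKP, the platelet-type phosphofructokinase, measured 10.60, 10.57 and 10.39 with siLSD1 and 11.25, 11.18 and 11.26 with siNTC. It fell by 38.7% (−0.71 ± 0.07, adjusted p = 8.4e-04), again with no overlap. PFKFB4, a related bifunctional enzyme, measured 9.19, 8.92 and 9.00 with siLSD1 and 9.69, 9.55 and 9.48 with siNTC. It fell by 31.1% (−0.54 ± 0.09, adjusted p = 0.0059), and every siLSD1 array lay below every siNTC array. HK2, the inducible hexokinase, measured 10.41, 10.47 and 10.40 with siLSD1, against 10.92, 10.93 and 10.81 with siNTC. It fell by 27.3% (−0.46 ± 0.05, adjusted p = 0.0018) and the groups were separate.

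HK1, the hexokinase of most tissues, went the other way from HK2. It measured 11.79, 11.74 and 11.70 with siLSD1 and 11.20, 11.25 and 11.31 with siNTC, 1.4-fold higher (0.49 ± 0.05, adjusted p = 0.0015). All siLSD1 arrays lay above all siNTC arrays. The phosphofructokinase genes also moved apart: PFKL, the liver type, fell by 0.38 ± 0.06 on the log2 scale (adjusted p = 0.0057), whereas PFKM, the muscle type, rose by 0.16 ± 0.04 (adjusted p = 0.045). The PFKM call was lost when any single array was left out (adjusted p = 0.064 to 0.14). PFKFB2, the third bifunctional enzyme measured, had a log2 fold change of 0.20 ± 0.08 and SLC2A1, the basal glucose carrier, had 0.01 ± 0.06, and neither passed.

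GPI, which isomerises glucose phosphate, fell by 0.24 ± 0.05 and ALDOC, the brain-type aldolase, by 0.35 ± 0.06 on the log2 scale. ENO1, an enolase, fell by 0.27 ± 0.05, PKM, a pyruvate kinase, by 0.19 ± 0.05, and LDHA, which turns pyruvate into lactate, by 0.25 ± 0.05. Their adjusted p-values ran between 0.0065 for ALDOC and 0.036 for PKM. The PKM call was lost without any of 5 of the 6 arrays (adjusted p = 0.066 to 0.13) and the LDHA call without any of 4 of them (adjusted p = 0.057 to 0.082). ALDOA, TPI1, GAPDH, PGK1 and PGAM1, the enzymes between aldolase and enolase, had log2 fold changes of −0.14, −0.11, −0.09, −0.12 and −0.11 and did not pass, although with eBayes using trend and robust all of them but PGAM1 did. Of those 5, all but PGAM1 had every siLSD1 array below every siNTC array, as groups did not overlap for 60.9% of all genes at 10 or above. The gaps could be very small: for PGK1 the nearest siLSD1 and siNTC arrays both read 13.79 after rounding. PDK1, the kinase that holds back pyruvate dehydrogenase, had a log2 fold change of −0.06 ± 0.07. Of the 14 measured enzymes of the main pathway, 7 were lower, 2 higher (HK1 and PFKM) and 5 did not pass, with a median log2 fold change of −0.17.

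Both measured oxygen sensors were lower. EGLN3, a prolyl hydroxylase that is itself a HIF target, measured 7.30, 7.46 and 7.25 with siLSD1 and 8.09, 8.10 and 7.99 with siNTC. It fell by 39.4% (−0.72 ± 0.07, adjusted p = 8.8e-04), and no array overlapped. EGLN1, the main prolyl hydroxylase in most cells, fell by 0.27 ± 0.06 on the log2 scale (adjusted p = 0.018), a call lost without any of 3 of the 6 arrays (adjusted p = 0.061 to 0.072). HIF1A had a log2 fold change of 0.07 ± 0.05 and did not pass. EPAS1, which encodes HIF-2 alpha, measured 6.44, 6.41 and 6.65 with siLSD1 against 5.73, 5.92 and 6.30 with siNTC, where its mean was dim. Counted from 6, it rose by at least 0.50 on the log2 scale (adjusted p = 0.043), but the call was lost without any of 5 of the 6 arrays (adjusted p = 0.065 to 0.14). The siNTC arrays themselves were widely spread, and the nearest siNTC array lay just below the siLSD1 group.

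Of the 10 measured HIF target genes outside glycolysis, 3 were lower and 1 was higher. NDRG1, a stress-responsive gene also known as an androgen-induced one, measured 10.44, 10.53 and 10.36 with siLSD1 and 10.93, 10.83 and 10.78 with siNTC. It fell by 24.4% (−0.40 ± 0.06, adjusted p = 0.0059), with separate groups. ANKRD37, an ankyrin-repeat protein gene, measured 8.91, 8.92 and 8.74 with siLSD1, against 9.16, 9.14 and 9.17 with siNTC, and fell by 0.31 ± 0.06 on the log2 scale (adjusted p = 0.015). P4HA1, a subunit of collagen prolyl hydroxylase, fell by 0.28 ± 0.08 (adjusted p = 0.046). BHLHE40, a transcriptional repressor of the circadian and hypoxic responses, rose by 0.32 ± 0.09 (adjusted p = 0.04). The P4HA1 call was lost without any of 5 of the 6 arrays (adjusted p = 0.077 to 0.15) and the BHLHE40 call without any of 4 of them (adjusted p = 0.098 to 0.14). VEGFA, the angiogenic growth factor, ADM, the vasodilator peptide adrenomedullin, BNIP3 and BNIP3L, mitophagy receptors, P4HA2, an alternative to P4HA1 as that subunit, and MXI1, an antagonist of MYC, did not pass, with log2 fold changes from −0.20 (BNIP3) to 0.16 (VEGFA). The plot of fold changes by gene shows all 34.

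**Figure D1:**
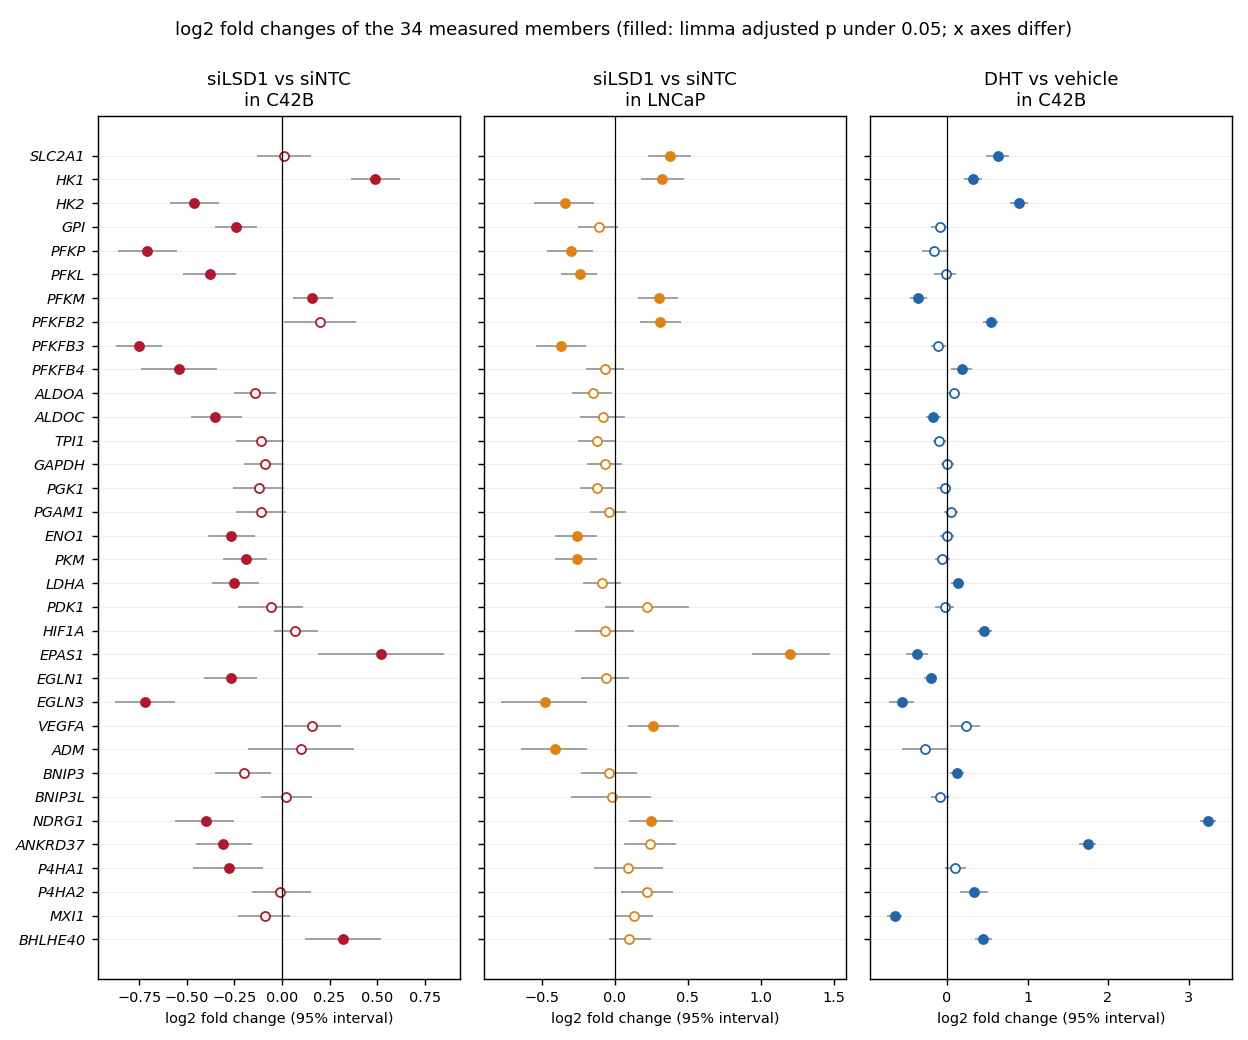
Log2 fold changes of the 34 measured members (points, limma estimates) with 95% intervals (lines) for siLSD1 against siNTC in C42B, siLSD1 against siNTC in LNCaP and DHT against vehicle in C42B, on x axes of different width. Filled points passed at an adjusted p under 0.05: 15 lie left of 0 and 4 right of it with siLSD1 in C42B, 8 left and 7 right in LNCaP, and 6 left and 12 right with DHT.

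Proliferation genes moved with siLSD1 beside these members. MKI67, TOP2A, CDC20, ASPM, MCM2 and MCM10 were listed as known to move in these data, so their count is no independent result. Among all genes 9.39% were lower in C42B and 12.5% in LNCaP. All 6 listed genes were lower, with a median log2 fold change of −0.52 in C42B and −1.54 in LNCaP. Their summed intensity was 7007 to 7228 in C42B siLSD1 arrays and 10300 to 10626 in siNTC arrays, and 2388 to 2705 against 6500 to 6781 in LNCaP. The part of this in the members' changes was not tested. Leaving out C42B siLSD1 replicate 3 left 9 of the 15 falls in C42B, and the number of rises was between 1 and 3 without any single array.

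The second comparison repeated siLSD1 against siNTC in LNCaP cells, in full serum. There 8 of the 34 members were lower, 7 were higher and 19 did not pass. Among all genes 25.9% passed (12.5% lower and 13.4% higher), and among those at 10 or above 20.8% were lower and 21.2% higher. The members' shares, 23.5% lower and 20.6% higher, were close to those of similarly bright genes. The median log2 fold change of the members was −0.07, against 0.01 over all genes. Groups did not overlap for 24 members, against 40.1% of all genes and 65.1% of those at 10 or above. The 8 falls became 2 without siLSD1 replicate 3, 4 without siLSD1 replicate 1 or siNTC replicate 3, and 5 without siNTC replicate 2.

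EPAS1 was higher, from a dim control. It measured 6.53, 6.37 and 6.30 in LNCaP siLSD1 arrays, against 5.38, 4.94 and 5.28 in siNTC arrays. The groups were far apart, and since the siNTC mean was dim the rise is given as at least 0.40 on the log2 scale (adjusted p = 1.7e-04). SLC2A1 measured 8.47, 8.42 and 8.41 with siLSD1 and 8.14, 8.06 and 7.98 with siNTC, a rise of 29.9% (0.38 ± 0.06, adjusted p = 0.0026) with no overlap. HK1 rose by 0.32 ± 0.06, PFKFB2 by 0.31 ± 0.06 and PFKM by 0.30 ± 0.06 on the log2 scale (adjusted p = 0.0063, 0.0069 and 0.0062). VEGFA rose by 0.26 ± 0.08 (adjusted p = 0.036) and NDRG1 by 0.25 ± 0.07 (adjusted p = 0.024). The VEGFA call was lost without any of 4 of the 6 arrays (adjusted p = 0.09 to 0.13) and under the replicate block, and the NDRG1 call without either of 2 (adjusted p = 0.07 to 0.094).

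EGLN3 had the largest fall in LNCaP. It measured 6.77, 6.64 and 6.78 with siLSD1 and 6.94, 7.49 and 7.22 with siNTC, and fell by 28.5% (−0.48 ± 0.13, adjusted p = 0.024). The siNTC arrays were widely spread, the lowest of them lay just above the siLSD1 group, and the call was lost without any of 4 of the 6 arrays (adjusted p = 0.056 to 0.082). ADM measured 6.34, 6.07 and 6.07 with siLSD1, against 6.68, 6.62 and 6.42 with siNTC. It fell by 24.9% (−0.41 ± 0.10, adjusted p = 0.015), with a narrow gap between the groups, and the call was lost without any of 3 of the 6 arrays (adjusted p = 0.053 to 0.066). PFKFB3 measured 7.84, 7.96 and 8.03 with siLSD1 and 8.22, 8.38 and 8.35 with siNTC, and fell by 0.37 ± 0.07 on the log2 scale (adjusted p = 0.0061). HK2 fell by 0.34 ± 0.09, PFKP by 0.30 ± 0.07 and PFKL by 0.24 ± 0.05. ENO1 and PKM each fell by 0.26 ± 0.06. All 5 had separate groups in LNCaP, though the HK2 and ENO1 calls were each lost without any of 4 of the 6 arrays and the PKM call without any of 3. Of the 14 main-pathway enzymes, 5 were lower, 2 were higher (HK1 and PFKM) and 7 did not pass. The 19 members that did not pass in LNCaP had log2 fold changes from −0.15 (ALDOA) to 0.24 (ANKRD37), among them HIF1A at −0.07 ± 0.09, EGLN1 at −0.06 ± 0.07, LDHA at −0.09 ± 0.06 and PFKFB4 at −0.07 ± 0.06.

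Several members passed in the same direction in both lines. HK2, PFKP, PFKL, PFKFB3, ENO1, PKM and EGLN3 were lower with siLSD1 in both lines, 7 of 34 members (20.6%), against 5.64% of all genes and 10.7% of genes at 10 or above over all arrays. HK1, PFKM and EPAS1 were higher in both, 3 members (8.82%), a share between 5.29% of all genes and 9.73% of those at 10 or above. NDRG1 passed in opposite directions, lower in C42B and higher in LNCaP. Over the 34 members the 2 sets of effects had a Pearson r of 0.68 and a Spearman rho of 0.62, given as a description, since members are not replicates and both sets come from the same array design. Both values include the fitted EPAS1 effects (0.52 in C42B and 1.20 in LNCaP), which are taken against dim controls.

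**Figure D2:**
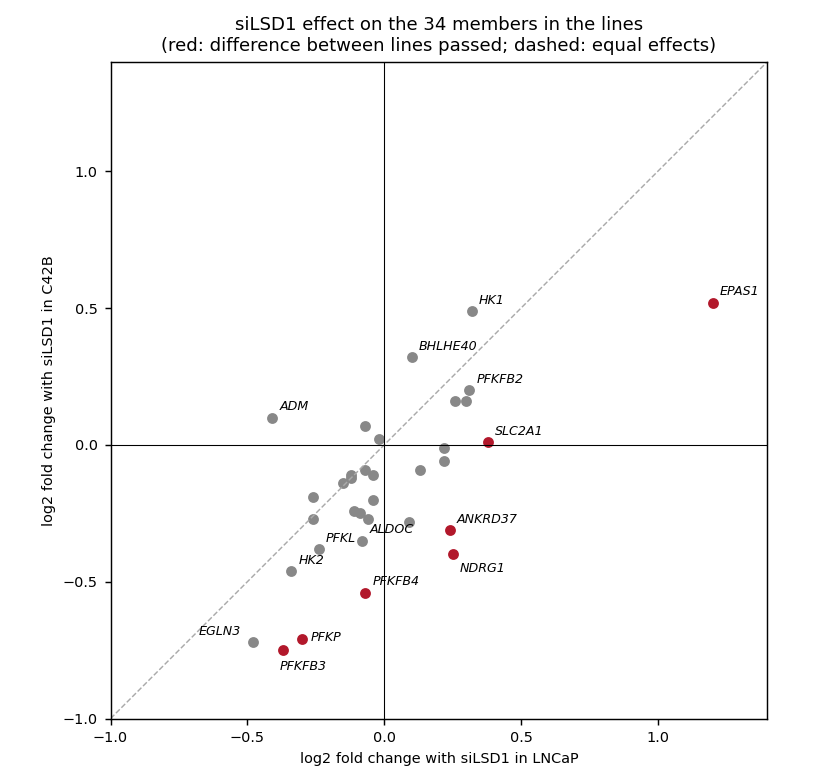
Log2 fold change with siLSD1 of each of the 34 measured members in C42B (y axis) against that in LNCaP (x axis), with a dashed line where the effects are equal. The 7 red points, where the difference between lines passed, all lie below the dashed line. HK1 sits in the upper right and EGLN3, PFKP and PFKFB3 in the lower left.

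The difference between the lines was tested directly, as the siLSD1 effect in C42B minus that in LNCaP over the 12 siRNA arrays. It passed for 7 members, each with a lower (more negative) effect in C42B, and for 0 in the other direction by limma. At an unadjusted p under 0.05 the count in that other direction was 1, ADM (difference 0.51 ± 0.17, adjusted p = 0.068), which passed under 4 other settings and also without either of 2 single arrays. Among all genes 11.6% passed (6.07% lower in C42B and 5.56% higher), and among those at 10 or above 6.55% were lower and 10.6% higher. NDRG1 had the largest such contrast among members with both groups bright. In LNCaP it measured 11.03, 11.06 and 10.97 with siLSD1 and 10.67, 10.81 and 10.83 with siNTC, above its control there, whereas the C42B values given above lay below theirs (difference −0.65 ± 0.09, adjusted p = 7.5e-04). ANKRD37 in LNCaP measured 9.15, 9.36 and 9.33 with siLSD1 and 9.08, 9.09 and 8.94 with siNTC, so that its effect also had the opposite sign to that in C42B (difference −0.55 ± 0.10, adjusted p = 0.0042). The LNCaP effect on its own, 0.24 ± 0.08, did not pass (adjusted p = 0.051).

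PFKFB4 measured 8.75, 8.74 and 8.67 in LNCaP with siLSD1 and 8.82, 8.80 and 8.76 with siNTC, a much narrower gap than in C42B (difference −0.47 ± 0.10, adjusted p = 0.013). SLC2A1 showed overlapping groups in C42B, at 8.27, 8.20 and 8.23 with siLSD1 and 8.32, 8.20 and 8.15 with siNTC, against its rise in LNCaP (difference −0.37 ± 0.08, adjusted p = 0.015). PFKP in LNCaP measured 10.14, 10.28 and 10.18 with siLSD1 and 10.45, 10.59 and 10.47 with siNTC. It was thus lower in both lines, and more so in C42B (difference −0.40 ± 0.09, adjusted p = 0.016). The same held for PFKFB3 (difference −0.37 ± 0.09, adjusted p = 0.017). EPAS1 rose in both lines, by at least 0.50 in C42B and at least 0.40 in LNCaP. Its fitted difference (−0.69 ± 0.20, adjusted p = 0.045) is taken against dim controls in both lines and gives no order between them, and the call was lost without any of 10 of the 12 arrays (adjusted p = 0.051 to 0.1). For the other enzymes shared by the lines the difference did not pass, with 95% intervals of −0.35 to 0.12 for HK2, −0.30 to 0.03 for PFKL and −0.17 to 0.17 for ENO1. Line, serum and experiment differ together and cannot be told apart, and the labels give an siRNA amount for LNCaP but none for C42B.

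The third comparison asked how these genes respond to androgen. With DHT 12 of the 34 members were higher, 6 were lower and 16 did not pass. Among all genes 32.7% passed (13.4% higher and 19.4% lower), and among those at 10 or above 23.7% were higher and 26.6% lower. Of the members 35.3% were higher and 17.6% lower. The median log2 fold change of the members was −0.00, against 0.01 over all genes. The groups did not overlap for 20 members, against 34.6% of all genes and 60.6% of those at 10 or above.

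NDRG1 had the largest change of any member. It measured 12.61, 12.56, 12.60 and 12.48 in DHT arrays, against 9.38, 9.30, 9.31 and 9.31 in vehicle arrays, 9.44-fold higher (log2 fold change 3.24 ± 0.04, adjusted p = 1.4e-10). ANKRD37, whose window with the E-box is printed above, measured 10.24, 10.24, 10.16 and 10.14 with DHT and 8.46, 8.44, 8.39 and 8.51 with vehicle, 3.35-fold higher (1.75 ± 0.04, adjusted p = 6.8e-09). Both groups of each gene were tight and far apart. HK2 measured 10.91, 10.85, 10.77 and 10.80 with DHT and 9.99, 9.94, 9.97 and 9.87 with vehicle, a rise of 85.4% (0.89 ± 0.05, adjusted p = 6.2e-07) with fully separate groups.

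Glucose uptake and control genes followed. SLC2A1 measured 8.41, 8.61, 8.44 and 8.39 with DHT and 7.91, 7.82, 7.71 and 7.91 with vehicle, a rise of 54.4% (0.63 ± 0.07, adjusted p = 6.1e-05). PFKFB2, whose heart-type enzyme is regulated by phosphorylation, measured 7.99, 8.06, 8.08 and 8.07 with DHT and 7.49, 7.54, 7.48 and 7.54 with vehicle, a rise of 45.2% (0.54 ± 0.04, adjusted p = 5.8e-06). Neither gene had overlapping groups. HK1 rose by 0.32 ± 0.05 (adjusted p = 7.9e-04) and PFKFB4 by 0.18 ± 0.06 (adjusted p = 0.041) on the log2 scale, and 1 of the 4 DHT arrays for PFKFB4 lay inside its vehicle range. The PFKFB4 call was lost without any of 7 of the 8 arrays (adjusted p = 0.062 to 0.1). PFKFB3, PFKP and PFKL had log2 fold changes of −0.11, −0.16 and −0.02 and did not pass, while PFKM fell by 0.36 ± 0.05 (adjusted p = 2.9e-04).

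From aldolase down, few enzymes passed with DHT. ALDOC fell by 0.17 ± 0.04 (adjusted p = 0.0095) and LDHA rose by 0.13 ± 0.04 (adjusted p = 0.019) on the log2 scale. ALDOA, TPI1, GAPDH, PGK1, PGAM1, ENO1, PKM and also GPI and PDK1 did not pass, with log2 fold changes between −0.10 (TPI1) and 0.08 (ALDOA). The 95% interval for GAPDH was −0.08 to 0.08 and that for ENO1 −0.09 to 0.09.

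Among the HIF genes, HIF1A measured 12.75, 12.72, 12.67 and 12.80 with DHT and 12.29, 12.24, 12.27 and 12.28 with vehicle, a rise of 37.8% (0.46 ± 0.04, adjusted p = 2.1e-05). EPAS1 measured 5.92, 6.06, 5.90 and 5.85 with DHT, a dim mean, and 6.20, 6.39, 6.33 and 6.30 with vehicle. Counted from 6 it fell by at least 0.31 on the log2 scale (adjusted p = 9.1e-04). The DHT and vehicle arrays were separate for both genes, with opposite order. EGLN3 measured 7.11, 7.32, 7.20 and 7.03 with DHT, against 7.70, 7.70, 7.65 and 7.85 with vehicle, and fell by 32.3% (−0.56 ± 0.07, adjusted p = 1.9e-04). EGLN1 fell by 0.20 ± 0.04 (adjusted p = 0.0026).

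Of the 10 HIF targets outside glycolysis, 5 were higher with DHT and 1 was lower. Besides NDRG1 and ANKRD37, BHLHE40 measured 8.85, 8.93, 8.78 and 8.76 with DHT and 8.33, 8.38, 8.38 and 8.42 with vehicle, a rise of 37.0% (0.45 ± 0.05, adjusted p = 6.5e-05). P4HA2 rose by 0.33 ± 0.08 (adjusted p = 0.0084), and BNIP3 by 0.12 ± 0.04 with an adjusted p of 0.05 after rounding, a call lost when any single array was left out (adjusted p = 0.059 to 0.13). MXI1 was the only faller of the group: it measured 11.09, 11.08, 11.04 and 10.95 with DHT and 11.68, 11.68, 11.71 and 11.72 with vehicle, and fell by 36.5% (−0.65 ± 0.04, adjusted p = 3.0e-06). VEGFA had 11.03 ± 0.17 with DHT and 10.81 ± 0.06 with vehicle (SD, n = 4 each), a log2 fold change of 0.23 ± 0.08 that did not pass (adjusted p = 0.059). ADM was dim in both groups, and BNIP3L and P4HA1 had log2 fold changes of −0.09 and 0.10 and did not pass.

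**Figure D3:**
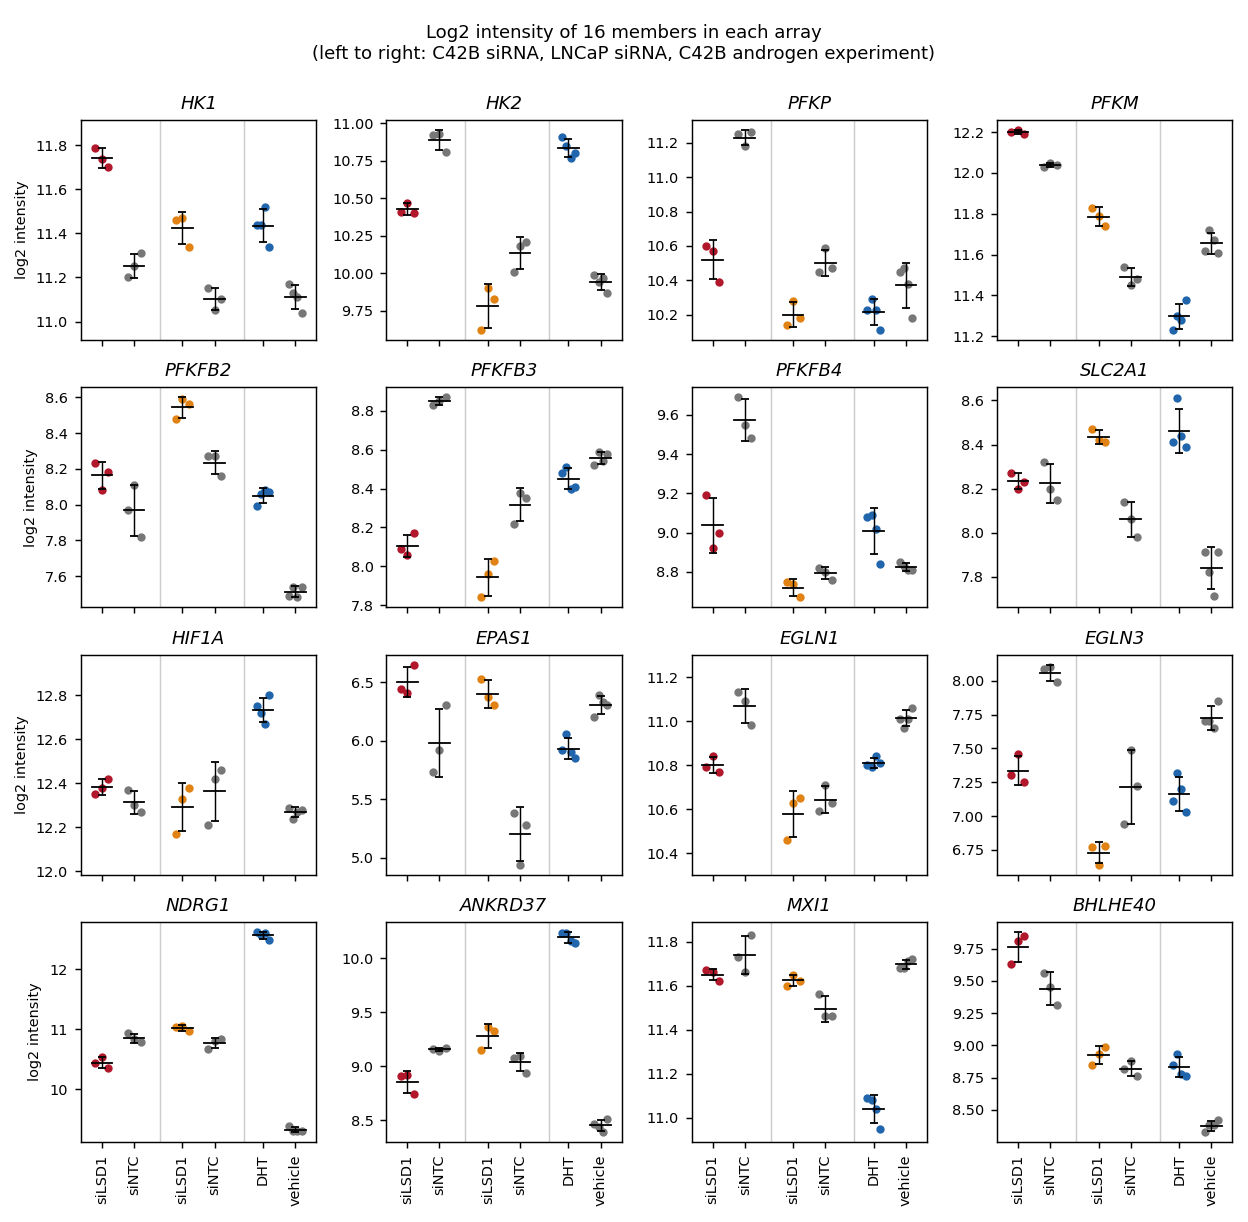
Log2 intensity (y axes, each with its own range) of 16 members in every array, with siLSD1 left of siNTC in C42B (red and grey) and LNCaP (orange and grey), and DHT left of vehicle in C42B (blue and grey). Points are arrays, long bars are group means and whiskers are SD (n = 3, 3, 3, 3, 4 and 4), and levels compare only within an experiment. NDRG1 reaches 12.48 to 12.61 with DHT against 9.30 to 9.38 with vehicle, and EGLN3 is lower in the left group of each pair.

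Set side by side within C42B, 5 members passed as lower with siLSD1 and higher with DHT: HK2, PFKFB4, LDHA, NDRG1 and ANKRD37. They are 14.7% of the members, against 1.31% of all genes and 2.22% of genes at 10 or above. The members were chosen with earlier results of these data known, so this share is a description. In 2 of the 5 a call rests on few arrays: LDHA and PFKFB4, for which the losses are given above. The 2 other HK2 probe sets, not dim in C42B, passed in neither comparison (−0.09 and −0.18 with siLSD1, −0.01 and 0.02 with DHT). The second PFKFB4 probe set did not pass either (−0.26 with siLSD1 and 0.07 with DHT). The LDHA rise with DHT was also lost without 1 array (adjusted p = 0.054) and under the replicate block (adjusted p = 0.055). The ANKRD37 fall with siLSD1 was lost without C42B siNTC replicate 3 (adjusted p = 0.051) and on averaging its probe sets (−0.15, adjusted p = 0.27). PFKM and EPAS1 passed the opposite way, higher with siLSD1 and lower with DHT (5.88% of members, against 3.01% of all genes and 4.52% of those at 10 or above). EGLN3 was the member lower in all 3 comparisons (2.94% of members, against 1.45% of all genes and 2.11% of those at 10 or above). HK1 was the member higher in all 3 (2.94%, against 1.61% and 3.78%), so neither share was far from its background. The 3 comparisons share no arrays. Over the 34 members the effects of siLSD1 and DHT in C42B had a Pearson r of −0.07 and a Spearman rho of 0.07, given as a description only. By number of comparisons, 6 members passed in 3 (17.6%, against 6.09% of all genes and 10.7% of those at 10 or above), namely HK1, HK2, PFKM, EPAS1, EGLN3 and NDRG1. A further 13 passed in 2 (38.2%, against 15.6% and 26.8%) and 8 in 1 (23.5%, against 27.2% and 37.5%). The 7 that did not pass in any, ALDOA, TPI1, GAPDH, PGK1, PGAM1, PDK1 and BNIP3L, were 20.6% of members, against 51.1% of all genes and 25.0% of those at 10 or above. That count depends on the fit: with eBayes using trend and robust, ALDOA, TPI1 and PGK1 passed as lower in both lines, GAPDH as lower in C42B, and ALDOA as higher and TPI1 as lower with DHT. The log2 sizes stayed at 0.15 or below. BNIP3L passed with DHT after quantile normalization.

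Other probe sets of the same gene gave a check within the arrays. The 34 members had 76 probe sets naming that gene alone, and 23 members had more than 1. EGLN3 was lower by its second probe set too, by −0.50 in C42B and −0.33 in LNCaP with siLSD1 and by −0.45 with DHT on the log2 scale, passing each time. PFKL fell by its second probe set in both lines (−0.29 and −0.34). With siLSD1 in C42B other probe sets of TPI1 (−0.24) and PGK1 (−0.34) passed as lower, where the brightest did not. The 3 further EGLN1 probe sets gave −0.65, −0.56 and −0.30 with siLSD1 in C42B and passed, but gave 0.03, 0.04 and 0.13 with DHT and did not pass. In LNCaP 2 of them passed as lower with siLSD1 (−0.40 and −0.31), beside −0.06 at the brightest, and the dim one had 0.01.

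Elsewhere the probe sets disagreed. The 2 other HK2 probe sets had DHT effects of −0.01 and 0.02, beside 0.89 at the brightest, and −0.18 and −0.09 with siLSD1 in C42B, none of which passed. BHLHE40 fell by 0.27 at its second probe set with siLSD1 in C42B and passed there, against the rise at the brightest. The 2 other EPAS1 probe sets were dim in every group and did not pass with siLSD1 in either line. With DHT 1 of them rose by 0.31 and passed, against the fall at the brightest. VEGFA rose with DHT at its 3 other probe sets (0.34, 0.32 and 0.28), all passing, and BNIP3 changed more at its second probe set, at −0.54 with siLSD1 in C42B and 0.34 with DHT, both passing. PFKFB2 rose by 1.04 and 0.41 with DHT at 2 further probe sets and had −0.01 at the other. Of 18 other probe sets of passing members, the sign matched the brightest for 12 with siLSD1 in C42B, for 14 of 18 in LNCaP and for 10 of 18 with DHT, and 5 matched and passed in each comparison. For the difference between lines the sign matched at 2 of 6 other probe sets of passing members, was opposite at 4, and 0 passed by limma's adjusted p. Probe sets can read different ends or transcripts of a gene, and some of the others were dim.

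**Figure D4:**
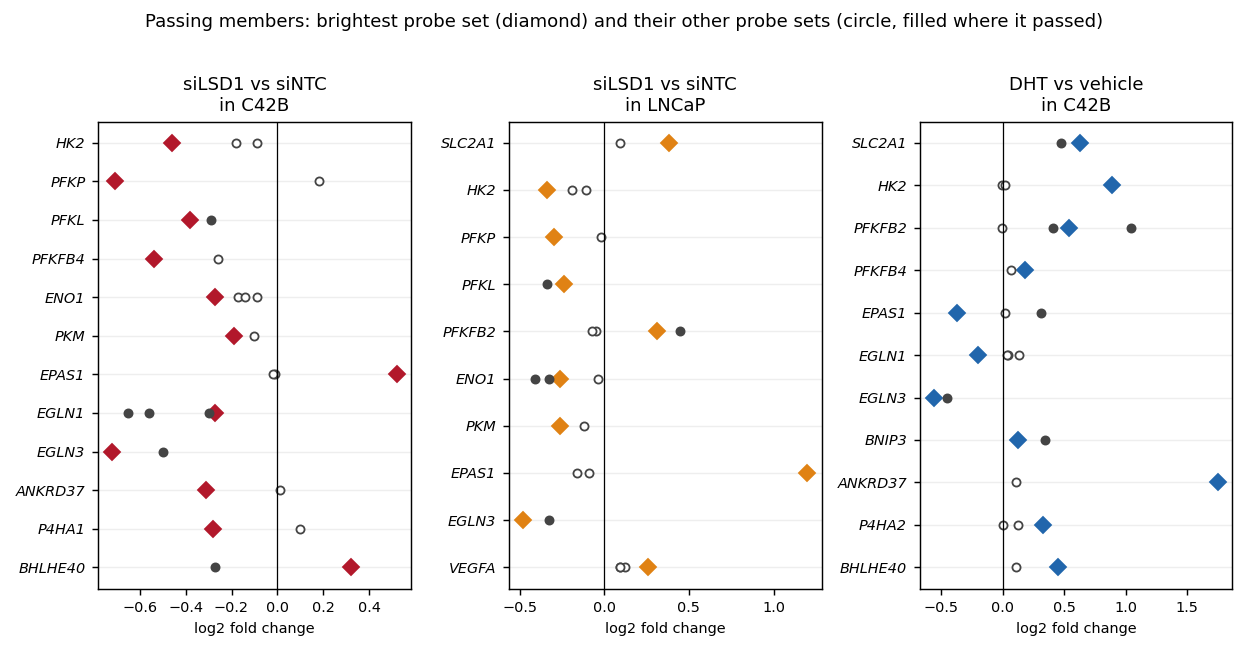
Log2 fold changes (x axes) at the brightest probe set (diamonds) and at the other probe sets (circles, filled where adjusted p was under 0.05) of passing members with more than 1 probe set, in the 3 comparisons. EGLN3 agrees in sign in each panel, whereas the other HK2 and ANKRD37 probe sets lie near 0 with DHT (−0.01, 0.02 and 0.11).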

How the data were processed

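Arrays were grouped by the labels into 6 groups (20 arrays). The deposited intensity values are on a linear scale (4.34 to 36333) and were made by the authors by RMA (affy), per the submitters' processing notes, which name no version used here. The intensity distributions separate by experiment. The labels name labelling kits for 2 µg and 200 ng of RNA but assign no sample to either, so no fit has a kit term.

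Values were taken to log2. Of 54675 probe sets, 62 are controls, 41091 name 1 gene in the platform annotation used here, 1801 name several and 11721 name none. The 1-gene probe set with the highest mean over the arrays stood for each gene, and no dim probe set was removed. Each comparison was fitted on its own arrays with lmFit and eBayes of limma 3.58.1 (R 4.3.3), two-sided, without covariates, with Benjamini-Hochberg adjustment over 19775 genes. The difference between lines was a contrast over the 12 siRNA arrays. The fit was also run on simulated data, drawn independently for each gene and array. Such data hold no shared array effects or links between genes, and the outcome is not given here. Where 1 group mean was below 6, the change was counted from 6 as a bound on the difference of means, without its sampling error. The adjusted p given with such a change is that of the fit to the measured values. Promoter windows came from RefSeq and were searched for letters on both strands. Tables were made with pandas 2.3.3 and numpy 2.4.6 under Python 3.11.15, and plots with matplotlib 3.10.9.

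The members and the companion lists were chosen with earlier results of these data known. Per-array values are given for members that passed with a size of at least 0.4 on the log2 scale in any comparison or that passed the difference between lines, and each companion list is represented by up to 3 passing genes by size per comparison. Alternatives were averaging a gene's probe sets, keeping bright genes only, centring arrays on their medians, quantile normalization, eBayes with trend and robust, the replicate number as a block, a joint fit of all 20 arrays, and dropping each array in turn. Testing every probe set on its own, and the share among genes with a mean of at least 10, were added after seeing the data. The number of arrays limits the precision. Raw scans were not used here.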

Additional observations from a re-analysis of the deposited data

Results flagged for a closer look

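For 7 members the siLSD1 effect differed between the lines by the limma contrast (C42B minus LNCaP, 3 arrays per group). For NDRG1 the log2 difference was −0.65 (adjusted p = 7.5e-04), with effects of −0.40 in C42B and 0.25 in LNCaP. ANKRD37 had a difference of −0.55 (adjusted p = 0.0042), from −0.31 and 0.24. PFKFB4 followed at −0.47 (adjusted p = 0.013), from −0.54 and −0.07. PFKP differed by −0.40 (adjusted p = 0.016), from −0.71 and −0.30, and PFKFB3 by −0.37 (adjusted p = 0.017), from −0.75 and −0.37. The SLC2A1 difference was −0.37 (adjusted p = 0.015), from 0.01 and 0.38, and that of EPAS1 was −0.69 (adjusted p = 0.045). The EPAS1 value is taken against dim controls, where the differences of means are only bounded (at least 0.50 in C42B and at least 0.40 in LNCaP). It therefore gives no order between the lines, and its call was lost without any of 10 of the 12 arrays.

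In the androgen experiment, 2 values stood apart from the other 3 arrays of their group. GPI was 12.43 in DHT replicate 1, against 12.53 to 12.55 in the others. ENO1 was 13.20 in DHT replicate 4, against 13.17 in each of the others, a gap of little size in a very tight group. These are 2 of 68 groups of 4 examined, and chance alone flags about 1 in 20.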

How the results depend on the processing

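Over the 4 comparisons eBayes with trend and robust added 22 member calls and ended 0. Averaging all probe sets of a gene changed 19. With it the members higher with siLSD1 in C42B numbered 2 instead of 4, the members with a lower effect in C42B than in LNCaP 3 instead of 7, and the C42B effect on VEGFA turned to −0.04. The calls for ANKRD37 (−0.15), ENO1 (−0.17), PKM (−0.15), P4HA1 (−0.09), BHLHE40 (0.03) and EPAS1 (0.16) in C42B ended, as did those for EPAS1 (−0.02), EGLN1 (−0.00) and PFKFB4 (0.13) with DHT and PFKP (−0.16), PFKFB2 (0.16) and VEGFA (0.14) in LNCaP, and BNIP3 in C42B (−0.37) and VEGFA with DHT (0.29) passed. The differences between lines for SLC2A1 (−0.18), PFKP (−0.10), ANKRD37 (−0.30) and EPAS1 (−0.16) no longer passed. With the replicate block 2 members were higher in C42B. The difference in the other direction passed for 1 member instead of 0 with bright genes only, quantile normalization, the replicate block and eBayes with trend and robust. That member is ADM (0.51, or 0.55 after quantile normalization). The block also added P4HA1 (−0.38) to the lower ones. Leaving out single arrays gave 1 to 3 higher and 9 to 14 lower members in C42B, 5 to 7 and 2 to 8 in LNCaP, 9 to 12 and 6 to 7 with DHT, and 0 to 1 and 6 to 8 for the difference. HK1, HK2, PFKP, PFKL, PFKFB3, PFKFB4, ALDOC, EGLN3 and NDRG1 kept their calls in C42B under all of these. HK1, PFKFB3, ALDOC and NDRG1 have 1 probe set each, so averaging could not change their values. Same-numbered arrays correlated at −0.10 to 0.20 around their group means, and not every array correlated best with its own number, so the numbers were not taken as pairs. The causes were not tested. With 3 or 4 arrays per group, smaller changes were not detectable, and probe sets below 6 gave only bounds.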

Other observations

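Genes around the members were counted from companion lists written from general knowledge, with earlier results of these data known. The shares to read them against are those of all genes that passed: 8.66% higher and 9.39% lower with siLSD1 in C42B, 13.4% and 12.5% in LNCaP, and 13.4% and 19.4% with DHT. Of 15 measured genes that handle pyruvate and lactate, siLSD1 raised 5 (33.3%) and lowered 3 in C42B, and raised 8 (53.3%) and lowered 1 in LNCaP. LDHD, a mitochondrial lactate dehydrogenase, rose by 0.46 ± 0.08 in C42B and 0.68 ± 0.07 in LNCaP on the log2 scale (limma adjusted p = 0.0077 and 2.2e-04), PDP1, the phosphatase that activates pyruvate dehydrogenase, by 0.38 ± 0.07 and 0.60 ± 0.12, and PDHB, a subunit of that enzyme complex, by 0.52 ± 0.08 in LNCaP. SLC16A7, a monocarboxylate carrier, fell by 0.44 ± 0.10 in C42B. With DHT 3 were higher and 3 lower: MPC2, a subunit of the mitochondrial pyruvate carrier, rose by 0.79 ± 0.04, the glucose carrier SLC2A3 by at least 1.00 from a dim vehicle mean, and SLC16A7 fell by 0.80 ± 0.07.

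The other hypoxia-inducible genes that passed were mostly lower with siLSD1 and split evenly only with DHT. Of 23 measured, siLSD1 in C42B raised 1 and lowered 8 (34.8%), where PLOD2, a collagen lysyl hydroxylase, fell by 0.62 ± 0.10 and ZNF395 by 0.52 ± 0.07. In LNCaP 1 was higher and 3 lower (13.0%), with HILPDA, a lipid droplet protein, down by 0.55 ± 0.08. With DHT 7 were higher and 7 lower (30.4% each): LOX, the lysyl oxidase, rose by at least 1.33, while STC2, a secreted glycoprotein, fell by 1.06 ± 0.04. Among 14 HIF pathway parts 1, 3 and 3 passed in the 3 comparisons, with ARNT2, a dimer partner, higher with siLSD1 in LNCaP (0.52 ± 0.08) and lower with DHT (−0.41 ± 0.07). Of 14 other glycolysis isozymes 1, 2 and 5 passed (7.1%, 14.3% and 35.7%, against 18.0%, 25.9% and 32.7% of all genes). For the HIF pathway parts the shares were 7.1%, 21.4% and 21.4%. ENO2, the neuronal enolase, fell by 0.32 ± 0.06 with siLSD1 in C42B and by 0.63 ± 0.08 with DHT, and BPGM rose by 0.49 ± 0.06 with siLSD1 in LNCaP and fell by 0.39 ± 0.06 with DHT. SLC2A3 and PFKFB1 each stand in 2 of these lists.

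Markers of other cell types differed in level. Of the endothelial list 1 of 4 was dim in each group, except 2 in C42B siNTC. Of the stromal list 2 of 4 were dim in each group, and COL3A1, a fibrillar collagen, fell with siLSD1 in LNCaP (−0.77 ± 0.13) and by at least 1.20 with DHT. Of 4 endothelial and 4 leukocyte markers none passed. For the GAPDH control probe sets, the 3′ signal exceeded the 5′ signal by 0.22 to 0.26 on the log2 scale in C42B siLSD1 arrays and by 0.24 to 0.3 in siNTC arrays, by 0.20 to 0.22 and 0.21 to 0.26 in LNCaP, and by 0.05 to 0.07 with DHT and 0.04 to 0.06 with vehicle, with overlap in each pair. The actin control had a wider gap between its ends, of 1.17 to 1.31 in C42B siLSD1 arrays against 1.13 to 1.19 in siNTC arrays. In LNCaP it spanned 0.93 to 1.09 under siLSD1 against 0.82 to 0.98, and in the androgen experiment 0.91 to 1.16 under DHT against 0.90 to 1.12. Both siLSD1 ranges reached higher than siNTC, with overlap, and the part of this in the members' changes was not tested.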
